A study of Mus musculus with 38 samples.

Results

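Old mice given 3 fractions of 0.5 Gy of high-energy protons (OP) were compared with sham-handled old mice (O) across all genes measured in the spleen. The comparison takes 19 of the 38 arrays of the series, chosen by the age and dose in their column names, 10 of OP and 9 of O. All 19 mice were male C57BL/6, 736 days old, and each carried a tumor grown from injected Lewis lung carcinoma (LLC) cells, so a tumor is present in both groups and no tumor-free spleen serves as a control. The cells were placed under the skin on the day of the first fraction, the protons reached the whole body, and spleens were taken once tumors had reached a set volume, so the time from irradiation to sampling was not fixed and its part in the results was not tested. The other 19 arrays, 9 of unirradiated adolescent mice (A) and 10 of adolescent mice given the same fractions (AP), both 68 days old and with the same tumor, are used to estimate the spread and to ask where old spleens differed from adolescent ones.

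The mouse spleen filters blood, houses B and T lymphocytes, and also makes red cells and granulocytes, a role that grows in tumor-bearing animals. Ionizing radiation breaks DNA, and lymphocytes and blood-forming cells are among the cells most easily lost to it. Heat shock proteins fold other proteins and keep signaling proteins stable, and cells that grow and divide need many of them together with ribosomes, RNA polymerases and replication proteins. Some red cell genes of the spleen gave very high signals on these arrays. Alpha-globin Hba-a1 had a median log2 signal of 14.75 in O and 14.64 in OP, a difference that did not pass the test. This level is near the top of the signal range. Quantile normalization gives the top ranks the same values on every array, so a change of Hba-a1 could be hidden. In whole spleens, fewer cells of one type and less RNA per cell cannot be told apart.

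**Figure D1:**
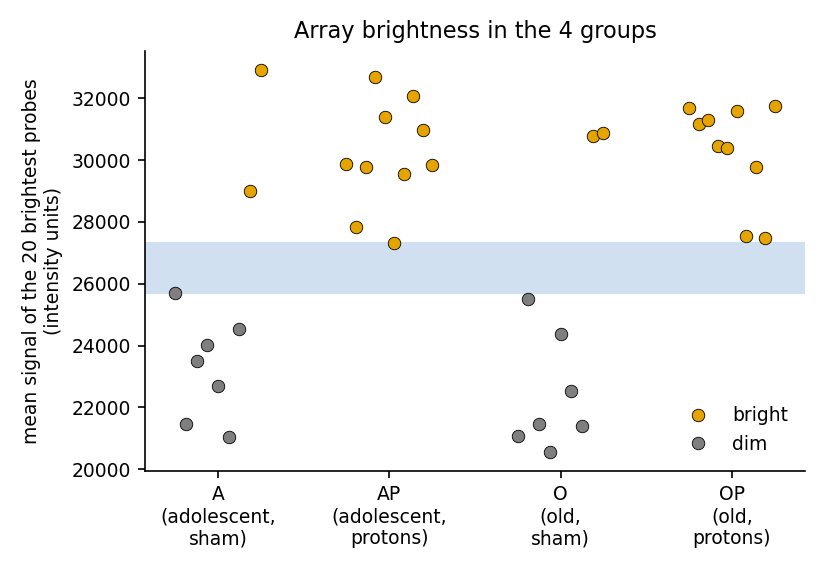
Array brightness, the mean signal of the 20 brightest probes in intensity units, on each of the 38 arrays by group; the shaded band is the largest gap, from 25703 to 27311. All 10 OP arrays lie above the band, and 7 of the 9 O arrays lie below it.

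Brightness of the arrays ran along with irradiation. The mean of the 20 brightest signals was 27474 to 31757 on OP arrays, while 7 O arrays lay between 20569 and 25500 and the other 2 (O8 and O9, numbered by their order in the table) were as bright as OP. The gap of 1609 between dim and bright arrays was the largest in the series, and 7 of the 9 A arrays were dim as well. Most changes are therefore given both as measured and with brightness in 2 classes as a term in the fit. Where a change in OP vs O is given alone and the term is not named, it is the change as measured. Such a value is not adjusted for brightness, and how much of it goes with brightness is not shown. All AP and OP arrays were bright, so the term is estimated from bright and dim arrays of A and O, with 2 bright arrays in each. One OP array (OP7) had a background signal of 138.1, against 97.5 to 108.1 on the other OP arrays.

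On 17099 genes, 5063 (29.6%) differed in OP vs O at an adjusted p under 0.05 in limma, 2450 upregulated (14.3%) and 2613 downregulated (15.3%). With brightness as a term 72 genes passed (0.421%), 28 upregulated and 44 downregulated, and 2088 (12.2%) had an unadjusted p under 0.05. Both fits called 68 genes in the same direction (0.398%), 26 upregulated and 42 downregulated. In 35 of these 68 the OP and O arrays did not overlap, against 327 such genes (1.91%) among all 17099, 253 of them lower in OP (1.48%). The 68 were selected for a difference on these same arrays, so a higher share among them follows from the selection. These calls with the term depend on both bright O arrays, since limma called 0 genes without O8 (1659 at an unadjusted p under 0.05) and 3 without O9, and leaving out OP4 gave 42 called in both fits. With the 19 old arrays alone in the fit, limma with the term called 0 genes, and 1066 had an unadjusted p under 0.05. On the bright O and OP arrays alone, 2 against 10, limma called 0 genes and gave 1483 at an unadjusted p under 0.05.

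The median change of all genes was 0.02 on the log2 scale, and -0.02 with the term. When array medians were aligned in place of quantile normalization, this median moved to 0.15 and to -0.27 with the term, and the calls split into 2205 upregulated and 662 downregulated genes, and with the term into 37 and 2409. With the term and aligned medians together, the medians of all gene lists but the adipocyte and pancreas markers lay below 0, so any other list median above 0 with the term is turned by that scaling. Changes are given for the quantile-normalized arrays unless another scaling is named. Labels give only a number for each replicate. The arrays are taken here as separate mice, since the study describes its replicates as spleen samples. The number of arrays limits the precision of each value.

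**Figure D2:**
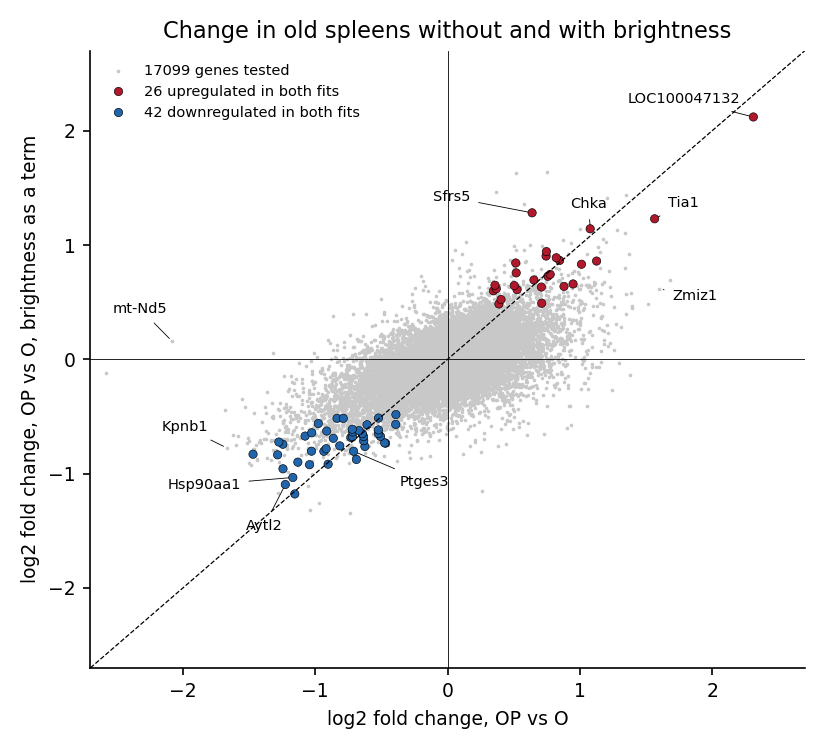
Log2 fold change of each of 17099 genes in OP vs O (horizontal axis) and the same change with brightness as a term (vertical axis); red and blue points are the 26 upregulated and 42 downregulated genes called in both fits, and the dashed line marks equal values. Called genes lie on both sides of the dashed line, such as Sfrs5 at 0.64 and 1.28, and mt-Nd5 lies at -2.08 and 0.16.

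Heat shock genes had a median below 0 in OP vs O. Of 30 heat shock genes in the list, 28 were tested, and 15 were downregulated, 1 was upregulated and 12 were not called, against 15.3% downregulated among all genes. Their median log2 fold change was -0.34, and -0.29 with the term, beside 0.02 and -0.02 for all genes. With the term 2 of the 28 were called, both downregulated, and 13 were lower and 1 higher at an unadjusted p under 0.05, against 7.42% and 4.79% of all genes. The mean level of the 28 genes was 8.09 to 8.31 on the log2 scale on the OP arrays and 8.46 to 8.74 on the O arrays, without overlap, and it was 8.47 and 8.48 on the 2 bright O arrays. Under aligned array medians the median change of these genes was -0.13, or -0.28 relative to all genes.

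Hsp90aa1 encodes the inducible form of the chaperone HSP90, which stabilizes kinases and hormone receptors. Its log2 signal (probe ILMN_2668319) was 8.17 to 9.81 on O arrays (median 8.86), compared with 7.41 to 8.28 on OP arrays (median 7.81). The 2 bright O arrays, at 9.04 and 8.63, lay above every OP array, and only 1 dim O array reached into the OP range. The log2 fold change was -1.17 (SE 0.16, adjusted p = 1.63e-06 in limma), and -1.03 with the term (SE 0.22, adjusted p = 0.0163). A dimmer probe of Hsp90aa1, with a mean level of 5.78, gave -0.33 and -0.16. Ptges3, the co-chaperone p23 that binds HSP90, covered 7.12 to 8.08 in O (median 7.95), against 6.68 to 7.36 in OP (median 7.02). It was downregulated by -0.71 (SE 0.12, adjusted p = 5.38e-05 in limma), and by -0.80 with the term (SE 0.17, adjusted p = 0.0184). One dim O array lay within the OP range of Ptges3. The constitutive partner Hsp90ab1 did not pass the test, with 11.95 to 12.60 in O and 12.06 to 12.65 in OP.

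Hsph1 (on the array as Hsp105), which recharges HSP70, had the largest change of the list. It was 9.25 to 10.67 on O arrays (median 10.22), compared with 8.36 to 8.92 on OP arrays (median 8.60), so that the groups did not overlap. Its log2 fold change was -1.49 (SE 0.21, adjusted p = 3.78e-06 in limma), and -0.93 with the term (adjusted p = 0.0978). The mitochondrial chaperonin Hspd1 and its lid Hspe1, which share a promoter region, were both downregulated. Hspe1 covered 7.94 to 9.15 in O, against 7.04 to 7.91 in OP, a change of -0.90 (SE 0.18) and of -0.64 with the term (adjusted p = 0.238 in limma). Hspd1 was 10.10 to 10.90 on O arrays, compared with 9.69 to 10.21 on OP arrays, a change of -0.46 (SE 0.14) and of -0.52 with the term (adjusted p = 0.209 in limma). The cytosolic chaperonin subunits Cct5 and Cct8 fell by 0.51 and 0.44 without the term, while Cct2 and Cct3 were at 0.01 and 0.13 and were not called. Among HSP70 proteins and their helpers, Hspa4, Dnaja2, Dnajb4 and Dnajb1 were downregulated by -0.78, -0.86, -0.67 and -0.34 without the term. Hspa8, the abundant constitutive HSP70, had -0.10 and the stress-inducible Hspa1a had 0.00, and neither passed. Hsf1, the transcription factor that turns on heat shock genes, had -0.02 (adjusted p = 0.888 in limma). Cryab, a small heat shock protein, was the single upregulated member at 0.43, and had 0.04 with the term.

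Heat shock factor binds inverted repeats of GAA in promoters, and 3 such repeats in a row, spelled GAA, 2 bases of any kind, TTC, 2 bases of any kind and GAA, were looked for on both strands in RefSeq promoters from 250 bases before to 50 after each start. The letters occurred in 198 of 32851 promoters (0.603%). Of the 28 tested heat shock genes 22 matched a promoter, and 4 had a match, namely Hsph1, Hspd1 and Hspe1 among 14 downregulated genes and Chordc1 among 8 that were not. The promoter between Hspe1 and Hspd1 is shown because 1 stretch serves both genes, and their windows share 285 bases on opposite strands. It is the 250 bases before the Hspe1 start, chr1:55087898-55088147 of GRCm38.p6, plus strand, 5′ to 3′, with 2 overlapping matches, 1 on each strand, in capitals:
Hspe1: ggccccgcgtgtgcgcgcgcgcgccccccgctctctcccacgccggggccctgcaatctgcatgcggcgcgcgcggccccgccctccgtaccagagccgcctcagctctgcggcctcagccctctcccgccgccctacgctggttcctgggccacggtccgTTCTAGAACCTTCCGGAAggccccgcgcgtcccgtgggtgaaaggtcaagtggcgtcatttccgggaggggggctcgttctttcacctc
The capitals span 18 bases, from base 162 to base 179 of the sequence. The match is a description of the letters, and no binding was measured.

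**Figure D3:**
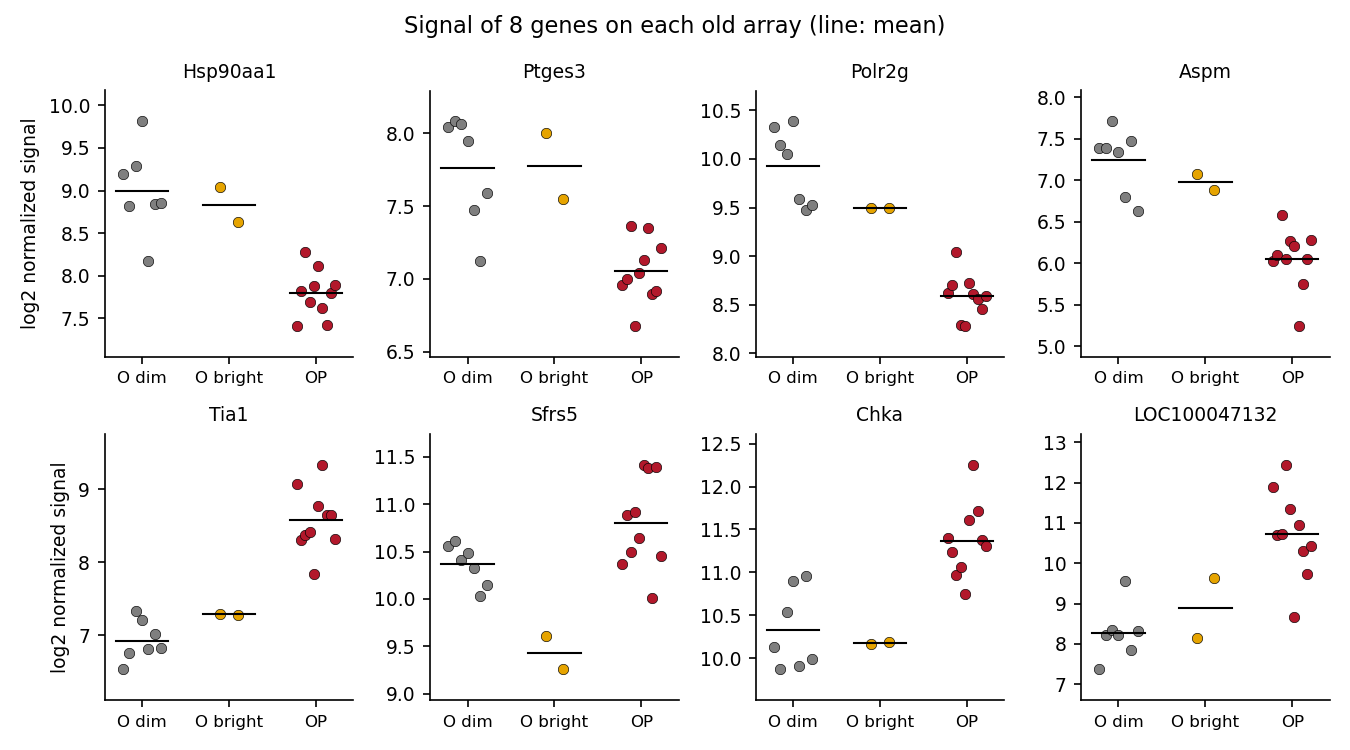
Log2 normalized signal of 8 genes on each old array, split into 7 dim O, 2 bright O and 10 OP arrays, with the mean of each as a line. Hsp90aa1, Ptges3, Polr2g and Aspm have both bright O arrays above all OP arrays; Tia1, Sfrs5 and Chka have both bright O arrays below all OP arrays, and LOC100047132 has 1 bright O array within the OP range.

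The genes among the 68 that follow were grouped by known role after their values were seen, and no such group was tested. Genes of the transcription machinery were called in both directions. Polr2g, a subunit of RNA polymerase II, covered 9.47 to 10.39 in O (median 9.59), against 8.28 to 9.04 in OP (median 8.60), without overlap. It was downregulated by -1.24 (SE 0.14, adjusted p = 2.6e-07 in limma), and by -0.96 with the term (SE 0.18, adjusted p = 0.0108). Polr3k, a subunit of RNA polymerase III, was 7.79 to 8.53 on O arrays, compared with 6.86 to 7.45 on OP arrays, with a change of -0.86 and of -0.69 with the term (adjusted p = 0.0167 in limma). A second Polr3k probe gave 0.24 and -0.11. Of 2 Mediator subunits, Med28 fell by 1.28 and by 0.72 with the term, while Med10 was upregulated by 0.35 and by 0.60 with the term. Nelfb (A730008L03Rik on the array), which holds RNA polymerase II paused near the start, was upregulated by 0.53 and by 0.61 with the term (adjusted p = 0.0167 in limma). Its second probe gave 0.64 and 0.69.

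RNA-binding and RNA-handling proteins were called in both directions. Ncbp2 of the cap-binding complex was downregulated by -0.81 and by -0.76 with the term (a dimmer probe gave -0.12 and -0.49), and Nup62, a channel protein of the nuclear pore, by -0.73 and by -0.68 with the term (adjusted p = 0.0167 in limma). Nup62 covered 9.97 to 10.75 in O, against 9.54 to 9.92 in OP, without overlap. The RNA-binding proteins Rbm15, Rbm4b and Rbm12 had -0.81, -0.65 and -0.48 with the term. Rbm12 gave -0.39 without the term, and its 3 other probes gave -0.54, -0.36 and 0.45. A second Rbm15 probe, at a mean level of 7.25, gave -0.04 and -0.08, so Rbm15 rests on 1 of its 2 probes.

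Tia1, an RNA-binding protein that gathers stalled messages in stress granules and also steers splicing, had the smallest adjusted p of all genes without the term. Its log2 signal (probe ILMN_1218118) was 6.53 to 7.33 on O arrays (median 7.02), compared with 7.84 to 9.33 on OP arrays (median 8.53). All 10 OP arrays lay above all 9 O arrays. It was upregulated by 1.57 (SE 0.16, adjusted p = 3e-08 in limma), and by 1.23 with the term (SE 0.20, adjusted p = 0.00612). The 3 other Tia1 probes gave 0.58, 0.13 and 0.28, and 0.64, 0.26 and -0.16 with the term. The probe used here had a mean level of 7.66 and the next one 7.62, so the choice of the brightest probe was close. Without OP7 that next probe was the brightest, and the change with the term was 0.25 and was not called. Srsf5 (Sfrs5 on the array), a serine- and arginine-rich splicing factor, was the gene whose change grew most among the named increases when brightness was added. It covered 9.25 to 10.62 in O, against 10.01 to 11.42 in OP, and the 2 lowest values, 9.60 and 9.25, were those of the bright O arrays. It was upregulated by 0.64 (SE 0.20, adjusted p = 0.0129 in limma), and by 1.28 with the term (SE 0.23, adjusted p = 0.00674). Its second probe gave 0.98 and 1.51. Gemin7, of the complex that assembles splicing particles, was upregulated by 0.40 and by 0.52 with the term, and its second probe by 0.37 and 0.49.

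A list of 34 splicing genes (Srsf5 not among them) had 11 upregulated and 2 downregulated members without the term, against 14.3% and 15.3% of all genes. Its median was 0.17. With the term the median was -0.02, and 1 member, U2af2, was called, downregulated by -0.51 (adjusted p = 0.0338 in limma). The mean level of the list was 9.92 and 9.93 on the bright O arrays and 9.82 to 10.05 on the OP arrays. Hnrnpa2b1, which packages new messages, had 0.74 and 0.68 with the term (adjusted p = 0.144 in limma).

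Genes that build ribosomes also had a median below 0. Of 34 tested, 16 were downregulated, 4 upregulated and 14 not called, against 15.3% downregulated and 14.3% upregulated among all genes, with a median of -0.24, and of -0.18 with the term. None passed with the term, where limma gave 9 lower and 0 higher at an unadjusted p under 0.05, against 7.42% and 4.79% of all genes. Their mean level was 8.40 to 8.64 on the OP arrays and 8.67 to 9.07 on the O arrays, without overlap, but a bright O array at 8.68 lay close to the highest OP array. Under aligned array medians the median was -0.01, or -0.16 relative to all genes. Several members had bright O arrays near the OP level. Nop14 (Nol14 on the array), of the small-subunit processome, fell by 1.58 and had -0.67 with the term (adjusted p = 0.2 in limma). Bop1, needed for the large subunit, fell by 1.22, but its bright O arrays at 7.46 and 7.43 lay at the top of the OP range of 6.96 to 7.45. The helicase Ddx21 was 9.09 to 10.29 on O arrays, compared with 8.12 to 9.13 on OP arrays, a change of -1.07 and of -0.83 with the term (adjusted p = 0.0765 in limma). Nucleolin (Ncl), the main protein of the nucleolus with Npm1, had -0.49 and -0.59 with the term (adjusted p = 0.0786 in limma). Npm1 was upregulated by 0.38 and had -0.07 with the term, and its bright O arrays at 12.91 and 12.90 lay above all dim O arrays. Outside the list, Rpf2 (Bxdc1 on the array), which brings 5S RNA into the large subunit, was called in both fits. It covered 7.31 to 7.91 in O, against 6.34 to 7.10 in OP, a change of -0.90 and of -0.92 with the term (SE 0.16, adjusted p = 0.00612 in limma). A dimmer Rpf2 probe gave 0.07 and -0.17.

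Replication and mitosis genes had lower medians in OP, with a wide spread between OP spleens. Of 38 replication genes 17 were downregulated and 1 upregulated, against 15.3% and 14.3% of all genes, with a median of -0.29, and of -0.13 with the term. Of 34 mitosis genes 14 were downregulated and 1 upregulated, with a median of -0.30, and of -0.22 with the term. No member of either list passed with the term in limma. At an unadjusted p under 0.05, 8 of each were lower (7.42% of all genes), and 1 mitosis gene was higher (4.79%). The mean level of the replication genes ran from 8.26 to 9.52 on the OP arrays and from 9.11 to 9.60 on the O arrays. The lowest OP array was OP7, the array of high background, and without it the medians were -0.18 for replication and -0.19 for mitosis, and -0.05 and -0.08 with the term. Under aligned array medians they were -0.02 and -0.09, or -0.17 and -0.24 relative to all genes.

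Within these lists, Rfc4, of the clamp loader, was 8.54 to 9.23 on O arrays, compared with 7.47 to 8.46 on OP arrays, a change of -0.98 (SE 0.16) and of -0.74 with the term (adjusted p = 0.109 in limma). The clamp itself, Pcna, fell by 0.77 and had -0.53 with the term. Gins2, a part of the replicative helicase, fell by 1.01 but had 0.06 with the term, and its bright O arrays at 6.82 and 6.91 lay in the midst of the OP arrays. Kif23, a motor of the dividing midbody, covered 10.58 to 11.38 in O, against 9.66 to 10.72 in OP, with -0.78 and -0.64 with the term (adjusted p = 0.0669 in limma). Mki67, the proliferation marker Ki-67, was upregulated by 0.44 and had 0.10 with the term, and Top2a had 0.07 and was not called. Aspm, a spindle-pole protein outside the mitosis list, was called in both fits. It was 6.62 to 7.71 on O arrays, compared with 5.24 to 6.58 on OP arrays, a change of -1.13 and of -0.90 with the term (adjusted p = 0.0493 in limma), and that last call was lost without any 1 of 13 of the 19 old arrays.

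**Figure D4:**
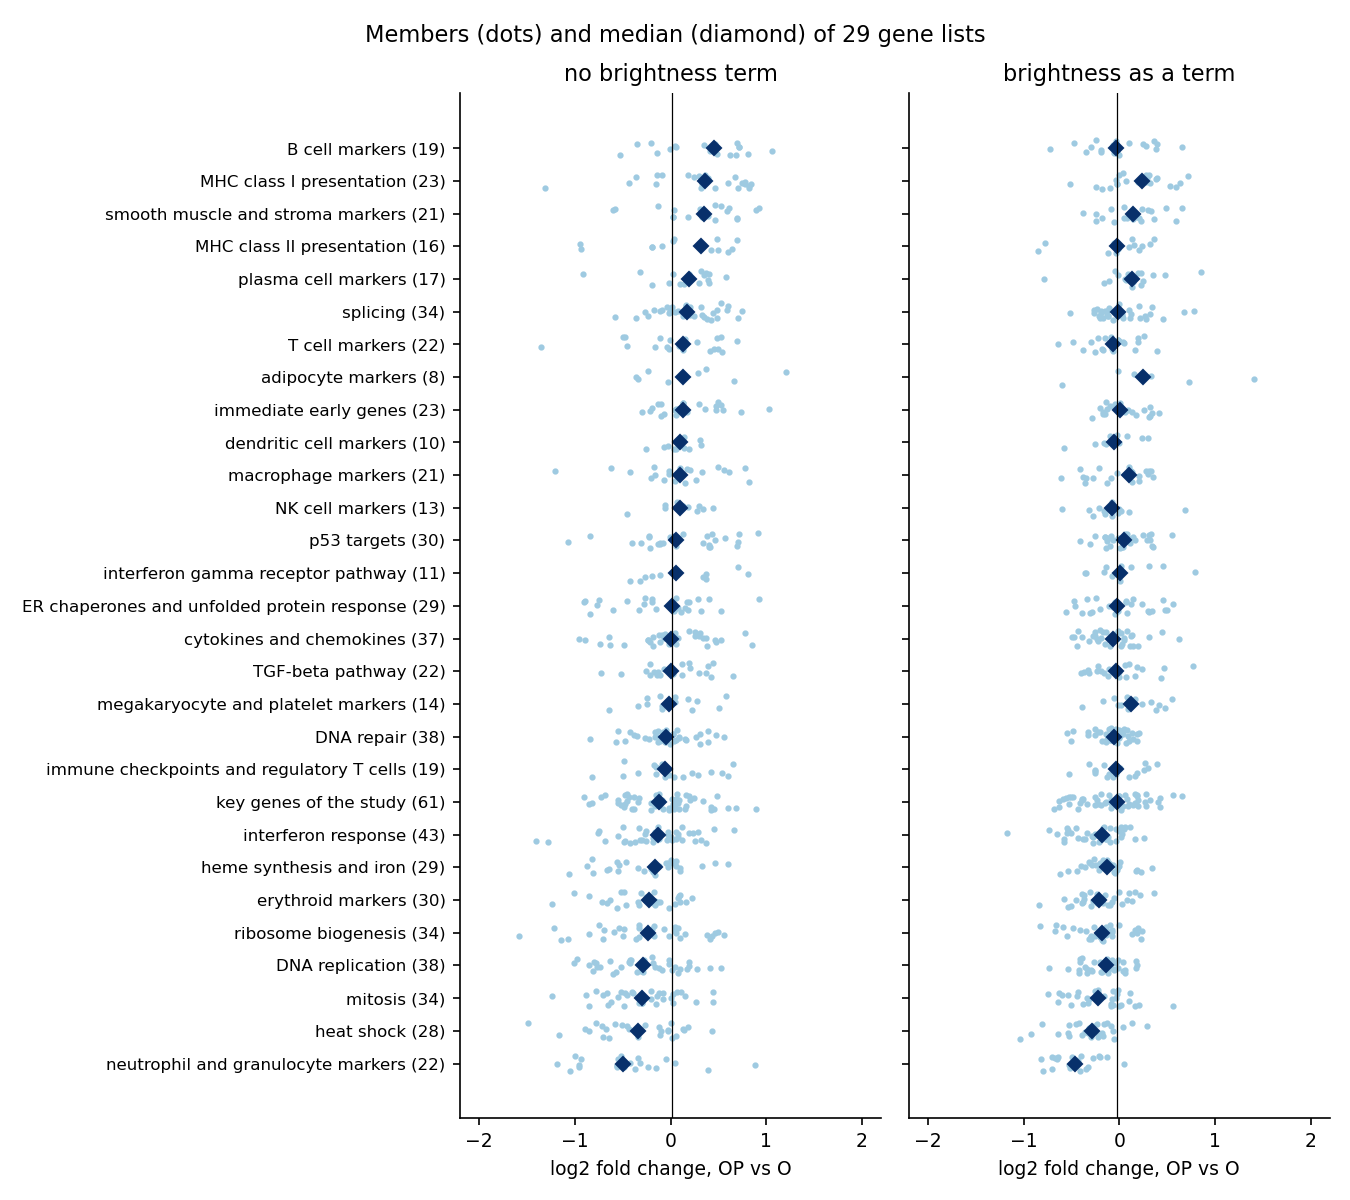
Log2 fold change in OP vs O of the members (dots) and their median (diamonds) for 29 gene lists, without the brightness term (left) and with it (right), with the number of members tested in brackets and the median of all genes as a vertical line. Heat shock stands at -0.34 and -0.29 and B cell markers at 0.46 and -0.03. Under aligned array medians several medians near 0 change sign.

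Chka, choline kinase alpha, which starts the making of phosphatidylcholine, covered 9.87 to 10.96 in O (median 10.16), against 10.75 to 12.25 in OP (median 11.34). The bright O arrays at 10.16 and 10.18 lay below all OP arrays, and 2 dim O arrays reached the lower end of the OP range. It was upregulated by 1.08 (SE 0.16, adjusted p = 8.57e-06 in limma), and by 1.14 with the term (SE 0.23, adjusted p = 0.0127). Its 3 other probes, all dim with mean levels of 5.73, 5.24 and 5.12, gave 0.74, 0.22 and -0.15, and 0.05, 0.06 and -0.28 with the term. Chkb, the other choline kinase, was 8.80 to 9.23 on O arrays, compared with 9.37 to 10.03 on OP arrays, without overlap, a change of 0.71 and of 0.49 with the term (adjusted p = 0.0416 in limma). Its second probe, at 8.39, gave -0.11 and 0.22. Lpcat1 (Aytl2 on the array), which remodels phosphatidylcholine, went the other way. It covered 6.84 to 8.00 in O, against 5.47 to 6.71 in OP, without overlap, a change of -1.23 and of -1.10 with the term (SE 0.22, adjusted p = 0.0127 in limma).

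Tsc1, which with Tsc2 restrains the growth kinase mTORC1, was upregulated by 0.75 and by 0.94 with the term (adjusted p = 0.0177 in limma). One dim O array of Tsc1, at 7.35, lay within the OP range of 6.83 to 7.51, and a dimmer probe gave -0.02 and 0.23. Atg4d, a protease of autophagy, was 5.95 to 6.94 on O arrays, compared with 6.99 to 8.09 on OP arrays, without overlap, with 1.01 and 0.83 with the term (adjusted p = 0.018 in limma), and its 2 dimmer probes gave 0.19 and -0.06. Adcy7, an adenylyl cyclase of blood cells, had 0.74 and 0.90 with the term, and other probes at 7.36 and 5.12 gave 0.43 and 0.20. Grk6 (Gprk6 on the array), a kinase that silences chemokine receptors, had 0.52 and 0.84 with the term (adjusted p = 0.00674 in limma), and its other probe 0.11 and 0.32. Arl2bp, a binding partner of the small GTPase Arl2, covered 7.55 to 7.95 in O, against 8.21 to 8.95 in OP, without overlap. It was upregulated by 0.76 and by 0.73 with the term (adjusted p = 0.0108 in limma), and of its other probes one at 8.22 gave 0.79 and 0.74 and one at 5.20 gave 0.02 and 0.14.

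Among the other decreases called in both fits, Arid2, a subunit of a SWI/SNF chromatin remodeler, was 8.50 to 9.29 on O arrays, compared with 7.60 to 8.32 on OP arrays, without overlap, with -1.04 and -0.92 with the term (adjusted p = 0.0108 in limma). Sec11c, a signal peptidase subunit, fell by 0.92 and by 0.78 with the term, and it was the one member of 17 tested plasma cell markers called with the term. It does not stand for that list, whose medians were 0.19 and, with the term, 0.13. Without the term 2 of the 17 were upregulated and 2 downregulated, against 14.3% and 15.3% of all genes. Mrpl52, of the mitochondrial ribosome, fell by 1.47 without the term and by 0.83 with it, and its bright O arrays at 9.43 and 9.23 lay between the dim O arrays and the OP arrays. Hadhb, of mitochondrial fat oxidation, had -1.08 and -0.67 with the term, and Rbx1, a core of cullin ubiquitin ligases, -0.52 and -0.51 (-0.36 and -0.01 at its other probe). Trim59, a ubiquitin ligase, had -0.69 and -0.88 with the term, and its second probe -1.27 and -0.99. LOC100044779, whose symbol matched no RefSeq gene, had -1.15 and -1.18. LOC100047132, also unmatched, had the largest increase, 2.31 and 2.12 with the term (SE 0.48, adjusted p = 0.0263 in limma). Its OP arrays ran from 8.67 to 12.44 and its O arrays from 7.37 to 9.64, and a second probe gave 1.57 and 1.38.

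The change differed between old and adolescent spleens for 103 genes (0.602%), tested as (OP vs O) minus (AP vs A), a contrast balanced for brightness. The count moved with single arrays, from 48 without OP8 to 516 without OP5, and was 51 to 64 without O3, O5, OP1, OP6, OP7 or OP9 and 168 without O9. Of the 68 genes, 7 were among them, and 6 of these were upregulated in OP. The contrast holds the same OP vs O change by which the 68 were selected, so this overlap is not independent evidence. Of all 103 genes, the difference was above 0 in 80 and below 0 in 23. This split depended on the scaling, since aligned array medians gave 2 above 0 and 19 below. Without OP5 it was 296 and 220. Tia1 ran from 6.77 to 7.96 in A and from 7.34 to 7.88 in AP, a change of 0.14 beside 1.57 in old spleens, with a difference of 1.42 (SE 0.22, adjusted p = 0.00102 in limma). Chka ran from 10.12 to 11.44 in A and from 9.96 to 10.76 in AP, a change of -0.41 beside 1.08, with a difference of 1.49 (SE 0.23, adjusted p = 0.00102 in limma). Both genes were upregulated in old spleens, while neither passed the test in adolescent ones. Tsc1 had 0.75 in OP vs O and -0.40 in AP vs A (adjusted p = 0.0334 in limma), a difference of 1.15 (SE 0.21, adjusted p = 0.0037). With the term Tsc1 had -0.20 in AP vs A and did not pass (adjusted p = 0.608 in limma). Mpv17, an inner mitochondrial membrane protein, had 0.11 and 0.95, a difference of 0.83 (adjusted p = 0.00211 in limma). The 4 other Mpv17 probes were dim. BC023835 (now Gatd1) had 0.11 and 0.88, and E030007N04Rik 0.16 and 1.13. Ahcy, which clears S-adenosylhomocysteine after methylation reactions, went down in both without the term, by -0.72 in old and by -0.23 in adolescent spleens. With the term its change in adolescent spleens was -0.15 and did not pass (adjusted p = 0.473 in limma). The difference between the ages was -0.49 (adjusted p = 0.0368 in limma) and was called in 16 of 19 fits that left out 1 old array. On aligned array medians the differences of these 7 genes kept their sign and none passed in limma (0.97 with adjusted p = 0.0923 for Tia1, 0.95 with adjusted p = 0.0782 for Chka). On the bright arrays alone none passed either, with unadjusted p of 7e-05 for Tia1 and 0.00014 for Chka.

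Immune lists gave the following. Of 23 genes of antigen presentation by MHC class I, 10 were upregulated and 2 downregulated, against 14.3% and 15.3% of all genes, with a median of 0.36, and of 0.24 with the term. No member passed with the term in limma, while 4 were higher and 0 lower at an unadjusted p under 0.05, against 4.79% of all genes higher. On aligned array medians the median was 0.55, and with the term it turned to -0.21, which is 0.06 relative to all genes. H2-D1, a classical class I chain, covered 11.40 to 12.52 in O, against 12.67 to 13.13 in OP, without overlap, with 0.82 and 0.40 with the term (adjusted p = 0.375 in limma). The nonclassical H2-T23 had 0.74 and 0.59, and Tapbp, which loads peptides onto class I, 0.36 and 0.72 with the term (adjusted p = 0.0552 in limma). H2-K1, the other classical chain, was downregulated by -1.32 and had -0.51 with the term. The H2 genes are near copies of each other, so their probes may share signal. Of 16 class II genes 3 were upregulated and 2 downregulated, against 14.3% and 15.3% of all genes. The 2 downregulated ones were H2-Aa and Ctss, at -0.94 each. The class II list had medians of 0.32 and of -0.02 with the term.

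Ifngr2, the second chain of the interferon gamma receptor, was 7.61 to 8.75 on O arrays, compared with 8.03 to 9.50 on OP arrays. It was upregulated by 0.70 (SE 0.15, adjusted p = 0.000473 in limma) and had 0.79 with the term (adjusted p = 0.0692). The groups overlapped in part, and the bright O arrays at 7.79 and 7.83 lay below all OP arrays. In AP vs A it was downregulated by -0.59 (adjusted p = 0.0021 in limma), and had -0.51 with the term. The difference between the ages was 1.30 (SE 0.21, adjusted p = 0.00124 in limma), which was called in each of 19 fits that left out 1 old array. Under aligned array medians it was 0.84 (adjusted p = 0.0817 in limma). Genes that respond to interferon had a median of -0.13, and of -0.18 with the term, with 7 of 43 downregulated and 3 upregulated, the first a share close to the 15.3% of all genes. Under aligned array medians the first value turned to 0.09, or -0.06 relative to all genes. Among them Ifi47, an interferon-induced GTPase, had -1.41 and -0.73 with the term, and Oasl2 -1.28 and -1.17 with the term (adjusted p = 0.0692 in limma).

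Markers of B cells had a median of 0.46 without the term and of -0.03 with it. Of 19, 4 were upregulated and 1 downregulated, against 14.3% and 15.3% of all genes. The 2 bright O arrays, at mean levels of 9.21 and 9.33, lay within the OP range of 7.58 to 10.09, and OP5 was the lowest array of all. Without OP7, which had the highest level, the median was 0.34. Fcer2a, the low-affinity IgE receptor of mature B cells, was upregulated by 1.05 and had 0.65 with the term. T cell markers had medians of 0.13 and -0.07. Of 22, 3 were upregulated, close to the share of all genes, and 1, the adaptor Lat at -1.35, was downregulated. Foxp3, the factor of regulatory T cells, covered 9.34 to 10.08 in O, against 8.86 to 9.31 in OP, without overlap, with -0.50 and -0.31 with the term (adjusted p = 0.235 in limma). The inhibitory receptor Lag3 had -0.82 and -0.52 with the term. These 2 decreases do not stand for the list of 19 checkpoint and regulatory T cell genes. In it 4 were upregulated and 2 downregulated, against 14.3% and 15.3% of all genes. Its medians were -0.06 and, with the term, -0.04. Of 13 NK cell markers none was called in limma, against 29.6% of all genes. With the term 1 was higher and 1 lower at an unadjusted p under 0.05, against 4.79% and 7.42% of all genes.

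**Figure D5:**
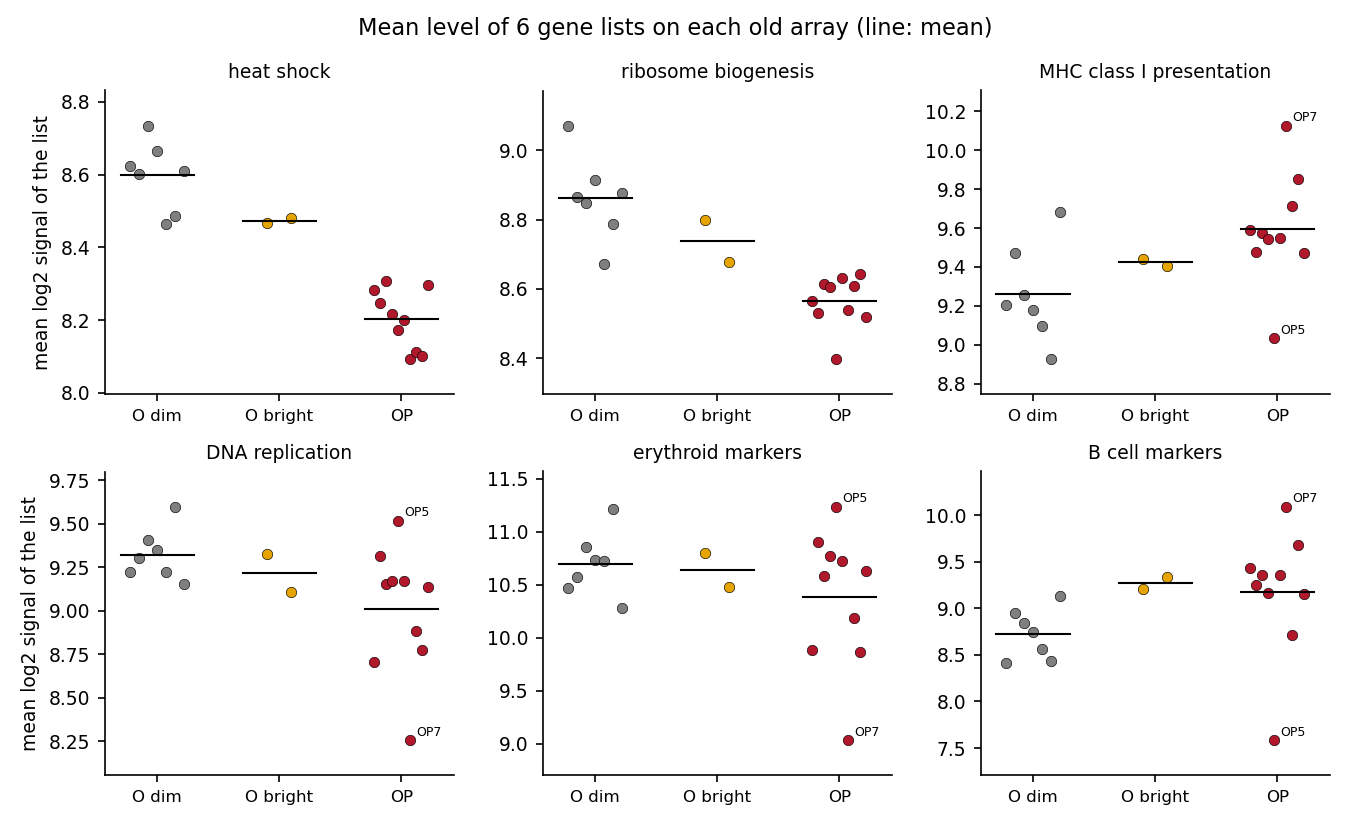
Mean log2 signal of 6 gene lists on each old array, split into 7 dim O, 2 bright O and 10 OP arrays, with the mean of each as a line; OP5 and OP7 are named where they stand at an end. Heat shock and ribosome biogenesis do not overlap between O and OP, whereas replication, erythroid and B cell levels spread most widely in OP.

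Red cell and granulocyte genes varied widely between OP spleens. The mean level of 30 erythroid markers ran from 9.03 (OP7) to 11.24 (OP5) on the OP arrays and from 10.28 to 11.22 on the O arrays. Of these markers 9 were downregulated and 0 upregulated, against 15.3% and 14.3% of all genes, with a median of -0.23, and of -0.21 with the term. Without OP7 the medians were -0.16 and -0.05. Klf1, the main erythroid transcription factor, had -0.64 and -0.51 with the term (adjusted p = 0.316 in limma), while Hba-a1, Hbb-b1 and Alas2 had -0.16, -0.14 and 0.10 and were not called. For Hba-a1, near the top of the signal range, normalization leaves little room for a change. Genes of heme synthesis and iron had a median of -0.16, and of -0.13 with the term. Of 29, 9 were downregulated and 2 upregulated, against 15.3% and 14.3% of all genes. Without OP7 these medians were -0.06 and -0.05. On aligned array medians the median of the heme genes turned to 0.08, which is -0.07 relative to all genes.

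Of 22 neutrophil and granulocyte markers 7 were downregulated and 1 upregulated, against 15.3% and 14.3% of all genes, with a median of -0.50, and of -0.46 with the term. With the term limma called none. It gave 2 lower and 0 higher at an unadjusted p under 0.05, against 7.42% and 4.79% of all genes. The mean level ran from 8.35 to 10.06 on the OP arrays and from 9.28 to 10.24 on the O arrays, and 1 of the bright O arrays held the lowest O value. Mmp9, a matrix protease of neutrophil granules, was 9.14 to 10.52 on O arrays, compared with 7.70 to 9.56 on OP arrays, with -1.06 and -0.80 with the term (adjusted p = 0.272 in limma). Myeloperoxidase (Mpo) had -0.95 and -0.49 with the term, and S100a8, the most abundant of these markers, -0.32 and was not called. The median of the list was -0.31 without OP7, -0.32 with array quality weights (-0.23 with the term), -0.29 under aligned array medians and -0.27 on the bright arrays alone.

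Smooth muscle and stroma markers had medians of 0.35 and 0.15, with 9 of 21 upregulated and 2 downregulated, against 14.3% and 15.3% of all genes. Sparc, a matrix protein, was upregulated by 0.92 and had 0.23 with the term. Myh11, the myosin of smooth muscle, covered 6.13 to 7.24 in O, against 6.99 to 8.47 in OP, with 0.89 and 0.66 with the term (adjusted p = 0.26 in limma). Col3a1 and Col1a2 were downregulated by -0.60 and -0.58. Macrophage markers had a median of 0.10 in both fits. Of 21, 4 were upregulated and 3 downregulated, against 14.3% and 15.3% of all genes. Emr1 (F4/80) was among the downregulated ones, at -1.20 and -0.61 with the term. Lyz2, lysozyme, was upregulated by 0.82 and had 0.35 with the term.

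Genes of the DNA damage response gave the following. Of 30 targets of p53, 8 were upregulated and 3 downregulated, against 14.3% and 15.3% of all genes, with medians of 0.06 and 0.05. The p53 medians under aligned array medians were 0.36 (0.21 relative to all genes) and, with the term, -0.33 (-0.06 relative to all genes). Trp53inp1, a helper of p53, was 8.80 to 9.82 on O arrays, compared with 9.68 to 10.65 on OP arrays, with 0.91 and 0.55 with the term (adjusted p = 0.126 in limma). The classical targets Cdkn1a and Mdm2 had 0.06 and -0.31 and were not called. Of 38 DNA repair genes 7 were downregulated and 4 upregulated, against 15.3% and 14.3% of all genes. Their median was -0.05 in both fits, which turned to 0.16 under aligned array medians without the term and to 0.02 without OP7. Atr, a damage-sensing kinase, and Xrcc6, which binds broken DNA ends, fell by 0.84 and 0.47, and had -0.51 and -0.25 with the term. None of the p53 targets or repair genes passed with the term in limma. At an unadjusted p under 0.05, 3 p53 targets were higher and 0 lower, and 0 repair genes were higher and 6 lower. Among all genes 4.79% were higher and 7.42% lower at that threshold.

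The study had named 61 key genes on these samples, so their counts are not independent evidence. Of these, 18 were downregulated and 6 upregulated in OP vs O, against 15.3% and 14.3% of all genes, with medians of -0.12 and -0.03. The first turned to 0.16 under aligned array medians and was -0.01 without OP7. With the term only Nup62 was called in limma. At an unadjusted p under 0.05, 13 were lower and 6 higher, against 7.42% and 4.79% of all genes. Asns, which makes asparagine, fell by 0.91, Prps1, of nucleotide synthesis, by 0.69 and Rad51c, of DNA repair, by 0.54. Of the upregulated ones, Cdc25a, a phosphatase of cell cycle entry, had 0.69 and Sirt2, a deacetylase, 0.42.

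Many of the largest changes without the term were small with it. F830002E14Rik covered 5.73 to 10.57 in O, against 5.44 to 6.00 in OP, but its bright O arrays, at 5.73 and 5.76, lay with OP. Its change was -2.58, and -0.12 with the term. The mitochondrial gene mt-Nd5, a subunit of respiratory complex I, had -2.08 and 0.16, with bright O arrays at 5.82 and 5.64 and dim ones from 7.79 to 9.84. Zmiz1, a coactivator of transcription, had 1.60 and 0.62, and Igk-V5, a light chain segment, 1.39 and 0.45. A second Igk-V5 probe, at a mean level of 9.58, gave 1.53 and 1.13, so its change shrank less. The 3 other Zmiz1 probes, all dim at a mean level of 5.23, gave 0.09, 0.09 and 0.51, and -0.19, 0.19 and 0.27 with the term. Kpnb1, the nuclear import receptor, and Ccdc88b kept OP and O apart. Kpnb1 was 7.11 to 8.95 on O arrays, compared with 5.76 to 6.98 on OP arrays, with -1.67 and -0.78 with the term (adjusted p = 0.104 in limma). Among the 5063 genes called without the term, 2925 had a change with the term that was over 50% smaller, and in 3452 the mean of the bright O arrays lay closer to OP than to the dim O arrays.

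Marker lists of other cell types varied between arrays. Pancreas markers had a mean level of 7.53 on O6 and of 5.49 to 5.63 on the other O arrays, against 5.36 to 5.66 on OP arrays. Adipocyte, dendritic cell, megakaryocyte, cytokine, TGF-beta, unfolded protein and immediate early lists had medians between -0.02 and 0.13, and between -0.06 and 0.25 with the term.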

How the data were processed

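Spleen RNA of 38 mice was measured on Illumina mouse bead arrays. The deposited table holds intensity values per probe that the authors exported from the scanner software without normalization, and their batch correction and quantile normalization came after it. Arrays were matched to groups by the age and dose in the column names.

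The 45281 probes were background-corrected (normexp, offset 16), quantile-normalized over the 38 arrays and log2-transformed. Probes stayed if detected on at least 9 arrays (over the array's background peak by 1.645 SD), which left 23842, and the brightest stood for its gene (17099 genes). limma 3.58.1 in R 4.3.3 fitted the 4 groups with and without brightness class (mean of the 20 brightest probes, split at the largest gap), with Benjamini-Hochberg adjustment over all genes and a threshold of 0.05. Scripts were tested on simulated data. Named genes were the 15 largest increases and decreases called in both fits, the 5 each called without the term only, and members of gene lists. The comparison and lists were chosen with earlier results of these data known, and gene examples beyond the rule were chosen after their values were seen. Promoters are from RefSeq (GRCm38.p6).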

Additional observations from a re-analysis of the deposited data

Results flagged for a closer look

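Groups of values were tested in O and in OP separately. They were the signals of 40 named genes, the mean levels of 30 gene lists and some measures of the arrays. In 13 of these groups 1 array lay far from the others. Chance alone gives about 1 in 20 of the groups tested, so a part of the 13 is expected by chance. Which of them are due to chance was not tested. Background signal was 138.1 on OP7. LOC385256 was 7.801 on OP7 and LOC386169 was 4.55 on OP1, each away from the other OP arrays. On O6 the pancreas markers had a mean log2 level of 7.525 and the mitosis genes 9.7. On O7 the checkpoint and regulatory T cell genes had 7.678 and the cytokines 7.877. Macrophage markers stood apart on O5 (9.925) and on OP5 (10.4), and dendritic cell markers on O9 (6.88) and on OP5 (6.295). Ribosome biogenesis genes were lowest on OP5 (8.397), and NK cell markers highest on OP8 (8.017).

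The change in old spleens differed from that in adolescent ones, by the limma test of the difference itself, for Tia1 (1.424), Chka (1.485), Tsc1 (1.146), E030007N04Rik (0.9685) and Zmiz1 (1.652). Zmiz1 was called in 12 of 19 fits that left out 1 old array, and none of these 5 passed under aligned array medians.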

How the results depend on the processing

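Shares of tested genes are given, in order, for calls without the brightness term (29.6%), with it (0.421%), in both fits (0.398%) and for the difference between ages (0.602%). Aligned array medians gave 16.8%, 14.3%, 2.72% and 0.123% (2867, 2446, 465 and 21 genes, the last with 2 higher and 19 lower). No filter on dim probes, with 30869 genes, gave 15.4%, 0.159%, 0.152% and 0.198% (4762, 49, 47 and 61 genes). Probes detected on all 38 arrays, with 9199 genes, gave 1.59% with the term (64 genes higher, 82 lower), 1.48% in both (136) and 1.39% for ages (128). The mean of probes gave 0.228% with the term (39) and 0.216% in both (37), and array quality weights 6.77% (1157) and 4.5% (769). Combat on brightness gave 17.9%, 2.09%, 2.09% and 5.98% (3065, 358, 358 and 1023). With the term, continuous brightness gave 3.36% (575), the bright arrays of 4 groups 0.0526% (9), the O and OP arrays alone 0 genes in that fit and 0 in both, and the bright O and OP arrays 0 genes, where limma gave 1483 at an unadjusted p under 0.05. The methods' t-test gave 6244 genes unadjusted and 4021 after Benjamini-Hochberg. No background correction and a larger offset stayed within 1.5 times of each share. Apart from fewer genes or arrays tested, the cause was not tested.

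Leaving out 1 old array gave 4369 to 5771 genes without the term. With the term it gave 0 (without O8) to 0.55% (94 genes, without OP3), in both fits 0 to 0.509% (87), and for ages 0.281% (48, without OP8) to 3.02% (516, without OP5). The change of mt-Nd5 turned from -2.08 to 0.021 under Combat, and was 0.38 on the bright arrays of 4 groups and 0.38 on the bright O and OP arrays. Of the 68 genes, 27 were also called in both fits under aligned medians, and 68 with array weights. Values near background limit what dim probes can show. No paired analysis was possible because the columns carry no replicate number shared with the labels.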
